A study of Mus musculus with 24 samples.

Results

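The GABAA receptor subunit genes Gabrg1, Gabra2, Gabra4 and Gabrb1 on mouse chromosome 5, Gabra5 and Gabrg3 on chromosome 7 and Gabrb2 on chromosome 11 were followed through postnatal development of the spinal nerve roots. They were taken as every gene probe that the array design names for one of these 7 genes and were grouped by the chromosome of the probe, which gave 22 of the 56605 gene probes of the array, or 7 of 37074 gene names as the array gives them: 12 on chromosome 5, 6 on chromosome 7 and 4 on chromosome 11. The question asked of them was whether the genes of one cluster changed together. Efferent nerve fibres (EN, from the ventral roots) and afferent nerve fibres (AN, from the dorsal roots) of segments L4-L6 had been collected from C57BL/6 mice of both sexes at P0, 1 week, 3 weeks and 5 weeks. Each of the 8 groups had 3 one-colour arrays, from 3 independent collections in which the fibres of several animals were pooled, so that the spread between arrays is that between pools and not between animals. Schwann cells and the other cells of the root were not removed from the fibres.

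GABAA receptors are pentameric chloride channels opened by GABA, most often built from alpha, beta and gamma subunits. Alpha subunits set much of the affinity for GABA and form the benzodiazepine site together with gamma subunits, the GABA site lies between alpha and beta subunits, and most receptors that cluster at synapses hold a gamma subunit. The genes lie in clusters that arose by duplication, each with alpha, beta and gamma members. The other subunit genes of the chromosome 7 and 11 clusters are counted here with the remaining subunits. Primary sensory neurons carry GABAA receptors along their axons and on their central terminals, where they take part in presynaptic inhibition, and in immature neurons GABA often depolarises because chloride inside the cell is high.

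On the mm9 coordinates of the array design the chromosome 5 probes spanned 1385 kb, from Gabrg1 (first probe chr5:71143181-71143240) through Gabra2 and Gabra4 to Gabrb1 (chr5:72528086-72528145). The chromosome 7 probes spanned 697 kb and the chromosome 11 probes, all of Gabrb2, 101 kb. Gabrb1 is read from the plus strand and the other 3 genes of the chromosome 5 group from the minus strand. In the RefSeq annotation of GRCm38.p6, whose coordinates differ from those of mm9, the first Gabrb1 start lies 388 bases inside the start of Gabra4, counting both start bases, so that the 2 genes open head to head with overlapping first parts.

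All 7 genes had at least one entry in the RefSeq promoter table. The 250 bases before the start are shown for the 5 genes with a single start in the table, to set the starts of genes in one cluster side by side. The letters searched, on either strand, were GGGCGG, then CCAAT, and then TATAAA, and capitals mark their matches, and each sequence is written 5′ to 3′ on the strand of its gene in GRCm38.p6.
Gabrg1, chr5:70842618-70842867, minus strand: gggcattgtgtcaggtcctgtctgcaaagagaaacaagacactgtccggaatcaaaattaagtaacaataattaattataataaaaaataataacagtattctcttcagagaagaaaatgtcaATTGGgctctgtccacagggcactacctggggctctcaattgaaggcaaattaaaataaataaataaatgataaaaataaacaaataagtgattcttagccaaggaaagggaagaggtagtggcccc
Gabra2, chr5:71095850-71096099, minus strand: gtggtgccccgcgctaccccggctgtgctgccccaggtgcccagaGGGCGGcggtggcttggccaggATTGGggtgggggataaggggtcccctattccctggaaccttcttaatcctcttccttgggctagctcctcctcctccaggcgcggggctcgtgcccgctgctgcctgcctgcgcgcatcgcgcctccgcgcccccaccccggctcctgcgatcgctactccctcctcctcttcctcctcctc
Gabra4, chr5:71658309-71658558, minus strand: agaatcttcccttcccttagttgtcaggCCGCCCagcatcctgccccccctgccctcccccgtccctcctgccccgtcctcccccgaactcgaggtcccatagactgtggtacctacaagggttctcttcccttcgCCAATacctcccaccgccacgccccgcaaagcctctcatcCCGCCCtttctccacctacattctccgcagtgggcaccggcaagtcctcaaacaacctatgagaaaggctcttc
Gabrg3, chr7:57387216-57387465, minus strand: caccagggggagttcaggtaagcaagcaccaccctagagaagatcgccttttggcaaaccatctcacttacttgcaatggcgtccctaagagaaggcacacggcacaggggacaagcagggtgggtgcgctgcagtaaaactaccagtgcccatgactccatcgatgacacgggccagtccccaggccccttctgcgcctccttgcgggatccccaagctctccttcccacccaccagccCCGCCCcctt
Gabra5, chr7:57510060-57510309, minus strand: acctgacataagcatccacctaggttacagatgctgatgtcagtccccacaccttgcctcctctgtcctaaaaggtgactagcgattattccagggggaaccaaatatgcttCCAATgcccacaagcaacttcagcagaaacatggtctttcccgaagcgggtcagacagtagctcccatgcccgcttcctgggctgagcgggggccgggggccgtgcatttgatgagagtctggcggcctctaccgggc
The Gabrg1 window held 1 CG dinucleotide and was 35.6% G and C, whereas the Gabra2 window held 18 and was 70.0%. Gabra4 had 12 CG dinucleotides, and Gabrg3 and Gabra5 had 9 each, against a median of 6 over the 32851 windows of the table. GGGCGG occurred in the Gabra2, Gabra4 and Gabrg3 windows and in 32.7% of all windows. CCAAT occurred in the Gabrg1, Gabra2, Gabra4 and Gabra5 windows and in 33.8% of all windows, and TATAAA in none of these 5 windows but in 12.4% of all. Gabrb1 and Gabrb2 have 2 and 3 starts in the table and are not shown, the first Gabrb1 window lying inside Gabra4. The Gabrb1 windows held 18 and 6 CG dinucleotides and none of the 3 motifs. The Gabrb2 windows held 8, 8 and 4, with GGGCGG and TATAAA in the first, CCAAT in the second and none in the last. These matches describe the letters of the windows and not sites of binding.

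Values are the deposited quantile-normalized log2 intensities. Of the 22 probes, 14 were tested, namely those that every array of some group had well above background, and each of the 7 genes kept at least 1 of them. A probe that entered because it was bright in 1 group had some room to differ from the others, and this holds for the whole array too. The other 8 probes, 4 of Gabrg1, 2 of Gabrg3 and 2 of Gabrb2, had means over all arrays of 2.59 to 4.77 on the log2 scale and were well above background on 0 to 6 of the 24 arrays. A call below means a limma difference past 2-fold with a Benjamini-Hochberg adjusted p under 0.05 over the 36409 probes tested.

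The arrays had 55.1% to 71.7% of probes above background and no saturated spot. Some arrays stood apart from the others of their group. AN at 3 weeks had 8 sensory neuron markers (among them Avil, Prph and Calca) at a mean log2 intensity of 10.27, 9.92 and 14.42 on replicates 1 to 3, and AN at 5 weeks at 11.49, 10.42 and 8.13. Replicate 3 was thus high at 3 weeks, and at 5 weeks it lay within the EN arrays (8.05, 8.03 and 8.83). On replicate 2 of AN at 5 weeks, 5 spinal inhibitory neuron markers were the highest of their group (7.46, 8.77 and 7.19) and so were 6 astrocyte markers (10.54, 11.03 and 10.28). On replicate 1 of AN at 5 weeks 4 skeletal muscle markers were high (13.56, 9.55 and 8.90), and at 3 weeks they read 13.38, 10.71 and 13.94. In bulk tissue fewer cells of a type and less RNA per cell cannot be told apart, and the values without these arrays are given beside the results that rest on them.

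At P0 none of the subunit genes was called between the kinds of fibre. Of the 14 tested probes 0 were called between AN and EN, where 0.327% of all tested probes were, and 1 had an unadjusted p under 0.05, the Gabrb2 probe A_51_P227679. Its arrays read 9.31, 9.61 and 9.37 in AN and 8.33, 8.43 and 8.23 in EN, without overlap, a log2 difference of 1.1 ± 0.44 (SE, adjusted p = 0.458). For Gabrg1, which encodes one of the less common gamma subunits of the brain, the P0 arrays read 7.90, 8.07 and 7.34 in AN and 7.63, 7.11 and 7.54 in EN and overlapped. Gabrb1 read 7.22, 7.41 and 7.63 against 7.28, 6.92 and 6.45, also with overlap.

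In efferent fibres all 4 genes of the chromosome 5 cluster fell after birth by at least 1 probe at each later age. Gabrg1 went from 7.63, 7.11 and 7.54 at P0 to 3.06, 5.22 and 4.88 at 1 week, 3.61, 3.71 and 3.65 at 3 weeks and 3.21, 3.15 and 3.70 at 5 weeks. No later array reached the lowest P0 array, and the probe was above background on 1 of 3 arrays at 1 week and on none at 3 and 5 weeks. The log2 difference from P0 was -3.04 ± 0.69 (SE, adjusted p = 0.00314) at 1 week, and at 3 and 5 weeks P0 was at least 5.86-fold and 5.22-fold higher. These bounds set the mean of the bright group against, on each array of the dim group, the dimmest probe still above background, or the probe itself where that was brighter, and the measured differences were -3.77 and -4.07 (adjusted p = 1.65e-04 and 6.75e-05).

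**Figure D1:**
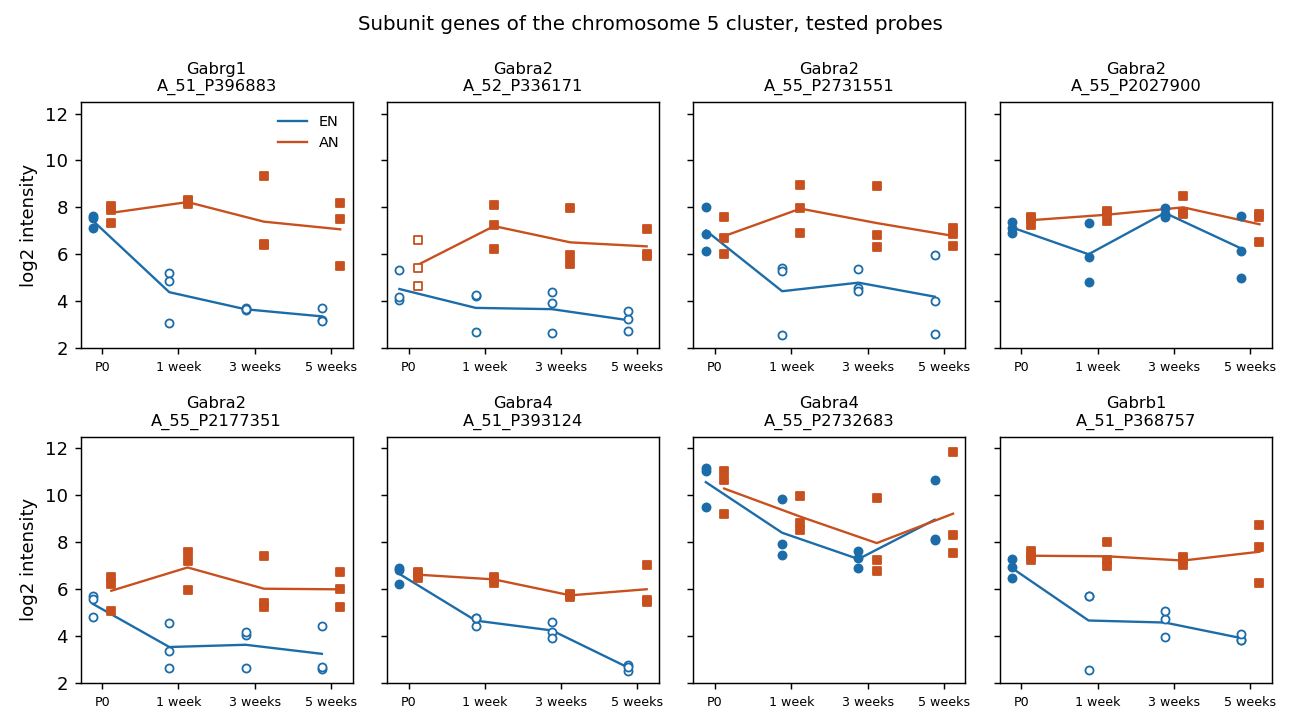
Log2 intensity of the 8 tested probes of the chromosome 5 genes by age, with 3 arrays a group in EN (circles) and AN (squares) and lines through the group means. Open symbols mark groups in which fewer than 3 arrays were well above background. In the panels of Gabra2 probe A_55_P2027900 and Gabra4 probe A_55_P2732683 the groups overlap at 1 or more of the ages after P0. In the other panels EN lies below AN without overlap at 1, 3 and 5 weeks. The panels include 4 probes of Gabra2, and the share of all tested probes that separate in this way was not counted.

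Gabra4, which encodes the alpha 4 subunit of extrasynaptic receptors, fell by probe A_51_P393124 from 6.91, 6.81 and 6.21 at P0 to 4.43, 4.76 and 4.78 at 1 week, 4.18, 3.93 and 4.59 at 3 weeks and 2.78, 2.50 and 2.67 at 5 weeks. The arrays of 5 weeks lay below all others, but at the level of a probe never above background. Gabrg1 probe A_55_P2935012 read 2.54, 2.53 and 2.67 on those arrays. The size of the further drop at 5 weeks is therefore unknown, and the small spread at that level enters the adjusted p. The differences from P0 were -1.99 ± 0.29 (SE, adjusted p = 9.08e-05) at 1 week and -2.41 and -3.99 at 3 and 5 weeks (adjusted p = 2.12e-06 and 2.64e-09), where the probe was above background on no array and P0 was at least 3.40-fold and 3.04-fold higher. With normexp background correction in place of the deposited values the 1 week and 3 week calls were lost.

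Gabrb1, which encodes the beta 1 subunit, read 7.28, 6.92 and 6.45 at P0, 2.55, 5.70 and 5.72 at 1 week, 4.70, 5.06 and 3.95 at 3 weeks and 3.81, 3.83 and 4.08 at 5 weeks in EN. Replicate 1 of 1 week was far below the other arrays of its age, and the probe was above background on 2, 1 and 0 of 3 arrays at the 3 later ages. The differences from P0 were -2.23 ± 0.65 (SE, adjusted p = 0.0157), -2.32 ± 0.65 (SE, adjusted p = 0.00576) and -2.98 ± 0.65 (SE, adjusted p = 7.72e-04), the last with P0 at least 3.59-fold higher. Without replicate 1 the 1 week difference was -1.18 and the call was lost (adjusted p = 0.105), as it was without replicate 1 of P0 and with the replicate block (adjusted p = 0.0675).

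Gabra2, which encodes the alpha 2 subunit found at axon initial segments and on spinal neurons, was measured by 4 tested probes. Probe A_55_P2731551 read 6.13, 6.88 and 8.03 at P0, 2.58, 5.40 and 5.30 at 1 week, 5.39, 4.56 and 4.43 at 3 weeks and 4.02, 2.60 and 5.96 at 5 weeks, and no later array reached the lowest P0 array. Its differences from P0 were -2.59, -2.22 and -2.82, with the probe above background on 1 of 3 arrays at each later age (adjusted p = 0.0334, 0.0374 and 0.0105). Probe A_55_P2177351 fell by 1.74 at 3 weeks and fell by 2.13 at 5 weeks on the log2 scale but was above background on 1 of 3 P0 arrays, so that the bounds were only 1.40-fold and 1.25-fold. Probe A_52_P336171 was not called in EN at any age. With the replicate block the 3 week calls of probes A_55_P2731551 and A_55_P2177351 and the 1 week call of probe A_55_P2731551 were lost (adjusted p = 0.0736, 0.0861 and 0.0697), and each of the 5 Gabra2 calls in EN was lost without any one of 2 to 4 EN arrays of P0 or of the later age.

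Counted over the 3 clusters, 7 of the 14 tested probes fell in EN between P0 and 1 week, where 5.67% of all tested probes fell. At 3 weeks 9 fell against 14.4%, and at 5 weeks 8 fell against 14.5%. None rose, where 6.25%, 16.1% and 15.4% of all tested probes did. All 7 genes had at least 1 of these probes at each age. The median log2 difference of the 14 probes was -1.91, -2.27 and -2.08 at the 3 ages, and that of all tested probes was 0.06, 0.04 and 0.04. Without replicate 1 of EN at 1 week the first of these counts was 4, where 9.52% of all tested probes were called in either direction.

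In afferent fibres no probe of the chromosome 5 cluster was called at any later age, where 8.58%, 27.8% and 27.8% of all tested probes were called at 1, 3 and 5 weeks. Of its 8 tested probes, 1, 2 and 1 had an unadjusted p under 0.05 in limma. Gabrg1 read 8.26, 8.30 and 8.12 at 1 week, 6.43, 6.41 and 9.33 at 3 weeks and 7.50, 8.21 and 5.49 at 5 weeks, with P0 at 7.90, 8.07 and 7.34. The 1 week arrays were close together, whereas at 3 weeks replicate 3 and at 5 weeks replicate 3 stood apart in opposite directions, as the sensory markers did. Gabrb1 read 7.99, 7.23 and 6.97 at 1 week, 7.03, 7.36 and 7.26 at 3 weeks and 7.80, 8.72 and 6.26 at 5 weeks, around its P0 arrays, with log2 differences from P0 between -0.20 and 0.17. For Gabra4 probe A_51_P393124 the 3 week arrays (5.79, 5.75 and 5.66) lay below P0 (6.72, 6.64 and 6.48) without overlap, and the difference of -0.88 ± 0.29 (SE, adjusted p = 0.0179) was under 2-fold. The 3 Gabra2 probes A_52_P336171, A_55_P2177351 and A_55_P2731551 had 1 week differences of 1.66, 0.99 and 1.17 (adjusted p = 0.0904, 0.337 and 0.378).

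The 2 kinds of fibre differed from 1 week on. Of the 14 tested probes 6 were higher in AN than in EN at 1 week, against 2.41% of all tested probes, 6 at 3 weeks against 2.23%, and 6 at 5 weeks against 2.49%. None was lower in AN, where 0.371%, 0.882% and 0.821% of all were. Gabra2 probes A_52_P336171 and A_55_P2177351, called at each of these ages, entered the test through AN groups alone. No EN group had them above background on all its arrays, so for them the choice of probes favoured a call higher in AN. All 6 at 1 week and 5 of the 6 at 3 and at 5 weeks were of chromosome 5, from its 4 genes at each age. At 3 and 5 weeks Gabra2 counted among these genes by those 2 probes alone, so its call there was favoured by the choice of probes. The sixth probe at 3 and 5 weeks was of Gabrg3. These comparisons share their EN arrays with the comparisons of EN over time, so the falls in EN and the excess in AN are not independent. Of the 26471 probes above background on all 24 arrays, 4 were of these genes and 0 of them were called at any age (adjusted p over those probes), since the probes that were dim in EN are left out by that choice.

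**Figure D2:**
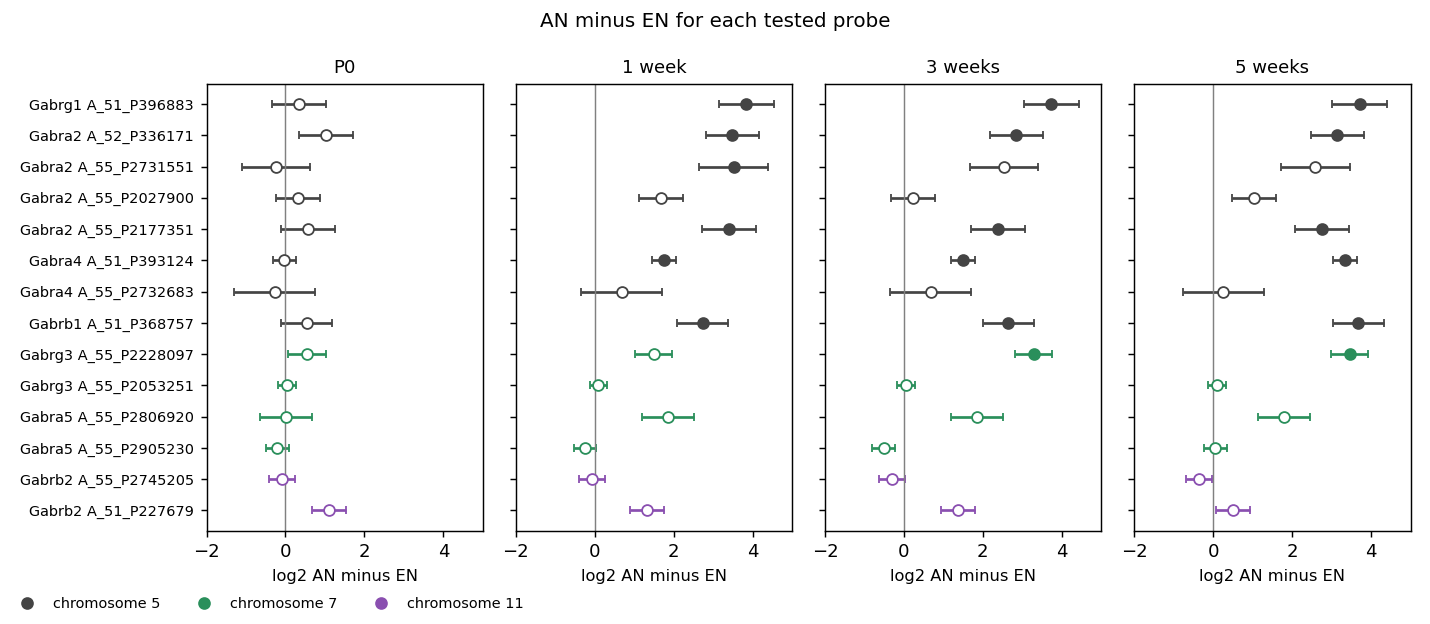
Log2 difference AN minus EN of each of the 14 tested probes at P0, 1 week, 3 weeks and 5 weeks, with the standard error of the limma fit (3 arrays a group). Filled points were called. The filled points begin at 1 week and belong to chromosome 5 in all but 1 probe, Gabrg3 A_55_P2228097.

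For Gabrg1 the AN minus EN difference was 3.84 ± 0.69 (SE, adjusted p = 0.00485) at 1 week, 3.74 ± 0.69 (SE, adjusted p = 0.00311) at 3 weeks and 3.71 ± 0.69 (SE, adjusted p = 0.00257) at 5 weeks. AN and EN arrays of one replicate number shared a slide, and the 3 differences within a number were 5.20, 3.08 and 3.25 at 1 week and 4.29, 5.06 and 1.79 at 5 weeks, all above 0, measured values in which most EN arrays lay below background. With EN above background on no array, AN was at least 5.71-fold and 4.06-fold higher at 3 and 5 weeks. For Gabra4 probe A_51_P393124 the differences were 1.76, 1.5 and 3.34 (adjusted p = 0.00353, 0.00508 and 1.66e-06), at least 1.81-fold and 1.93-fold at 3 and 5 weeks. These calls were lost with normexp background correction at the 3 ages, and that of 5 weeks also when only the arrays compared were fitted. Gabrb1 differed by 2.74, 2.64 and 3.68 (adjusted p = 0.0202, 0.0204 and 0.00166), the last at least 5.85-fold.

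Gabra2 probe A_52_P336171 read 6.24, 8.12 and 7.26 in AN and 2.67, 4.22 and 4.25 in EN at 1 week, 5.59, 5.96 and 7.97 in AN and 4.39, 3.93 and 2.66 in EN at 3 weeks, and 6.01, 7.08 and 5.93 in AN and 3.26, 2.73 and 3.58 in EN at 5 weeks. The groups did not overlap at these ages, and EN was above background on no array. AN was at least 5.01-fold, 3.10-fold and 2.46-fold higher (measured differences 3.49, 2.85 and 3.15, adjusted p = 0.00669, 0.0170 and 0.00747). Probe A_55_P2177351 gave 3.39, 2.39 and 2.75, all called, and probe A_55_P2731551 gave 3.52, called, and 2.54 and 2.59, which missed the threshold (adjusted p = 0.0962 and 0.0839). Probes A_52_P336171 and A_55_P2177351 entered the test through AN groups alone, which favoured their calls. The 3 and 5 week calls of both probes A_52_P336171 and A_55_P2177351 were lost with normexp and when only the arrays compared were fitted. Those of probe A_55_P2177351 were also lost with no filter on dim probes at 3 weeks, and at 5 weeks with array weights and without replicate 2 of AN or replicate 1 or 2 of EN.

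Several of these calls rested on single arrays. Without replicate 1 of EN at 1 week 2 probes were called at that age (0.989% of all), those of Gabrg1 and Gabra4. The 3 Gabra2 probes and Gabrb1 then had adjusted p from 0.0526 to 0.183. Without replicate 3 of AN at 3 weeks, the array with the high sensory markers, or without replicate 3 of EN, 3 were called at 3 weeks. These were of Gabrg1, Gabra4 and Gabrg3, beside 1.89% and 1.84% of all tested probes. The Gabrb1 calls were also lost without any one AN array at 1 week and without replicate 2 of AN or replicate 1 of EN at 3 weeks, and the 3 week call of Gabra2 probe A_55_P2177351 (adjusted p = 0.0454) without any one of 12 arrays. At 5 weeks 5 were called without replicate 2 of AN and 7 without replicate 3. With the replicate number within each age as a random block, the fit that follows the pairing of AN and EN arrays, 10 of the 14 probes were called at 1 week (4.73% of all), 9 at 3 weeks (5.75%) and 8 at 5 weeks (5.68%). Its calls at 1 week added the Gabra5 probe A_55_P2806920 (1.86, adjusted p = 0.00939), the Gabrg3 probe A_55_P2228097 (1.49, adjusted p = 0.0261), the Gabrb2 probe A_51_P227679 (1.32, adjusted p = 0.0104) and the Gabra2 probe A_55_P2027900 (1.69, adjusted p = 0.00755). When only the 6 arrays of the 2 groups were fitted, 3 were called at 3 weeks (1.85% of all) and 0 at 5 weeks (0.0961%).

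On chromosome 7 both genes fell in efferent fibres by 1 of their probes. Gabra5, which encodes the alpha 5 subunit of extrasynaptic receptors, read 8.83, 8.78 and 8.78 by probe A_55_P2806920 at P0, 5.49, 6.30 and 7.24 at 1 week, 5.42, 4.44 and 5.63 at 3 weeks and 5.21, 5.84 and 4.79 at 5 weeks. The P0 arrays were nearly equal and no later array overlapped them. The differences were -2.45 ± 0.66 (SE, adjusted p = 0.00969), -3.64 ± 0.66 (SE, adjusted p = 1.48e-04) and -3.52 ± 0.66 (SE, adjusted p = 1.87e-04), and the first was lost without replicate 1 of 1 week (adjusted p = 0.0592). In AN the same probe read 9.25, 8.91 and 8.28 at P0, 8.04, 8.30 and 8.28 at 1 week, 6.00, 6.47 and 8.55 at 3 weeks and 6.76, 8.74 and 5.74 at 5 weeks. The 3 week and 5 week values fell by 1.80 and 1.73 (adjusted p = 0.0284 and 0.0354), although the highest array of each age overlapped P0, and both calls were lost without replicate 1 or 2 of AN at P0. The first was also lost without replicate 1 or 2 of 3 weeks and the second without replicate 1 or 3 of 5 weeks, at -1.06 without replicate 3.

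Gabrg3, which encodes the gamma 3 subunit, read 7.24, 7.39 and 7.26 by probe A_55_P2228097 in EN at P0, 4.98, 5.15 and 5.39 at 1 week, 2.65, 3.70 and 3.57 at 3 weeks and 3.46, 2.59 and 4.21 at 5 weeks. It was above background on every array at 1 week and on none afterwards, with P0 at least 5.35-fold and 4.77-fold higher. The differences from P0 were -2.12 ± 0.47 (SE, adjusted p = 0.00283), -3.99 and -3.88 (adjusted p of the last 2 = 1.53e-06 and 1.69e-06). In AN it read 8.06, 7.91 and 7.56 at P0, 6.65, 6.23 and 7.12 at 1 week, 6.24, 6.67 and 6.87 at 3 weeks and 6.72, 8.23 and 5.69 at 5 weeks, and fell at 3 weeks by 1.25 (adjusted p = 0.0348, and 0.120 with the replicate block), a call also lost without replicate 1 or 2 of AN at P0 or at 3 weeks. AN exceeded EN by 3.29 ± 0.47 (SE, adjusted p = 3.64e-04) at 3 weeks and 3.46 ± 0.47 (SE, adjusted p = 1.73e-04) at 5 weeks, at least 3.29-fold and 3.58-fold. At 5 weeks replicate 2 of AN, the array with the high spinal markers, was the highest, and the differences within a replicate number ran from 1.48 to 5.64, as measured against EN arrays below background.

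**Figure D3:**
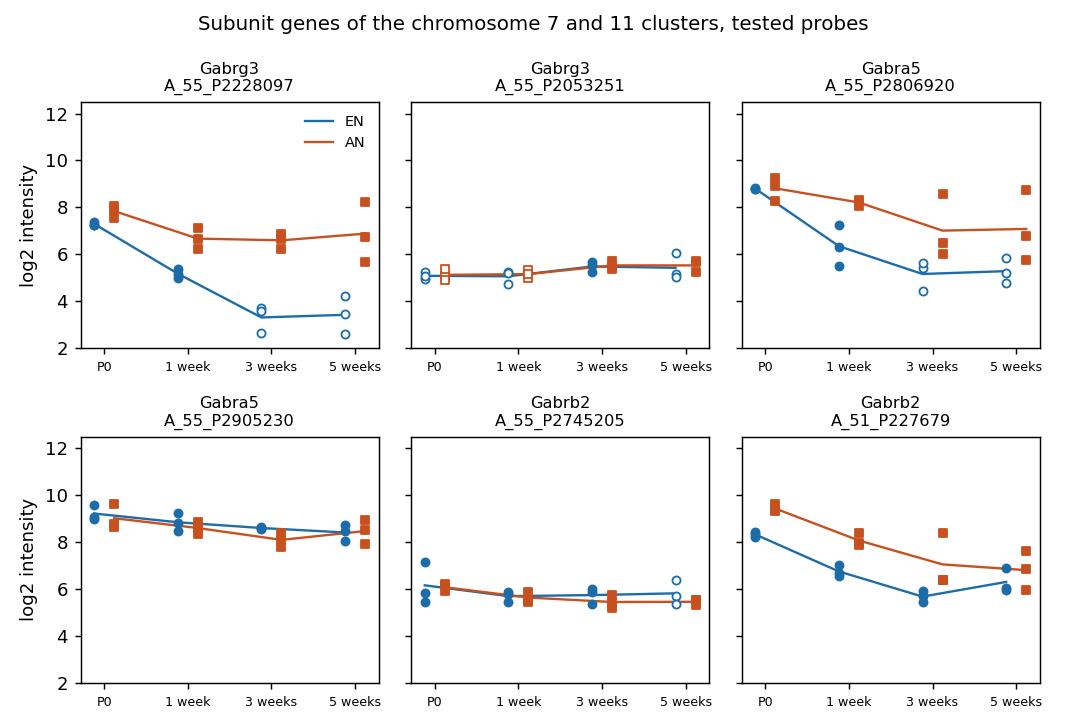
Log2 intensity of the 6 tested probes of the chromosome 7 genes (Gabrg3 and Gabra5) and of Gabrb2 on chromosome 11, drawn as for chromosome 5. Gabrg3 A_55_P2228097 and Gabra5 A_55_P2806920 drop in EN, Gabrb2 A_51_P227679 drops in both kinds of fibre, and the other 3 probes, 1 of each gene, stay within about 1 log2 unit of P0.

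Gabrb2, which encodes the beta 2 subunit of the most common synaptic receptors of the brain, fell in both kinds of fibre. Probe A_51_P227679 was above background on all 24 arrays and read 8.33, 8.43 and 8.23 in EN at P0, 6.54, 6.70 and 7.0 at 1 week, 5.70, 5.43 and 5.90 at 3 weeks and 6.91, 5.95 and 6.05 at 5 weeks. In AN it read 9.31, 9.61 and 9.37 at P0, 7.86, 7.97 and 8.38 at 1 week, 6.40, 6.37 and 8.38 at 3 weeks and 6.84, 7.64 and 5.94 at 5 weeks. In both fibres every later array lay below the P0 arrays. The differences from P0 were -1.58, -2.65 and -2.03 in EN (adjusted p = 0.0116, 5.70e-05 and 6.97e-04) and -1.36, -2.38 and -2.62 in AN (adjusted p = 0.0315, 1.80e-04 and 5.89e-05). The AN difference at 1 week was not called with the replicate block (adjusted p = 0.0577) or without any one of the 3 AN arrays of P0 or replicate 1 or 2 of 1 week.

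Counted in AN, 1 of the 14 probes fell at 1 week, against 3.62% of all tested probes, 3 at 3 weeks against 12.8% and 2 at 5 weeks against 12.7%. None rose, where 4.96%, 15% and 15.2% did. They were Gabrb2 at each age, Gabra5 and Gabrg3 at 3 weeks and Gabra5 at 5 weeks, with none of chromosome 5. The 1 week count was 0 with the replicate block (8.22% of all). The 5 week count was 5 without replicate 2 of that age, the array with the high spinal markers (29.9% of all). Some of those 5 were of chromosome 5. It was 1 without replicate 1 or 3 of that age or replicate 1 or 2 of P0. The 3 week count was 1 without replicate 1 of that age (26.3% of all). With slide as a fixed block 1 probe was called at 3 weeks, the Gabra5 probe A_55_P2905230 (-1.37, adjusted p = 8.40e-04), in place of those 3.

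Whether AN minus EN at a later age differed from AN minus EN at P0 was tested with an interaction contrast. At 1 and 3 weeks 0 of the 14 probes passed, where 0.0632% and 0.525% of all tested probes did, and 6 and 5 had an unadjusted p under 0.05. At 5 weeks 2 passed, against 0.931%, namely Gabra4 probe A_51_P393124, at 3.37 ± 0.42 (SE, adjusted p = 5.73e-04), and Gabrg3 probe A_55_P2228097, at 2.91 ± 0.67 (SE, adjusted p = 0.0404). Both probes were above background on no EN array at 5 weeks. With EN set at the background limit there, the interactions were at least 0.98 and 1.29 on the log2 scale. The Gabra4 call was lost with normexp and when only the arrays of the 4 groups were fitted, and the Gabrg3 call without any one of 16 arrays. Without replicate 3 of AN at 5 weeks, whose sensory markers lay within EN, 4 probes passed (1.60% of all). Without replicate 2 of that group 1 did (0.632%). Without replicate 3 of AN at 3 weeks 2 passed at 1 week (1.55%). Without replicate 2 of AN at 5 weeks 1 and 2 passed at 1 and 3 weeks (0.0769% and 0.755%). With the replicate block 3 passed at 1 week (2.11% of all), 3 at 3 weeks (2.89%) and 4 at 5 weeks (3.84%). Gabra4 and Gabrg1 were among them at each age, with Gabra2 probe A_55_P2731551 at 1 week, Gabrg3 at 3 and 5 weeks and Gabrb1 at 5 weeks. For Gabrg1 the interaction was 3.50, 3.39 and 3.37 at 1, 3 and 5 weeks (adjusted p with the block = 0.0232, 0.0168 and 0.0132; without it, 0.256, 0.161 and 0.118). For Gabrb2 probe A_51_P227679 it was 0.22, 0.27 and -0.60 (adjusted p = 0.841 at 5 weeks, the lowest of the 3).

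How alike the genes were was described by Pearson's r between probes over the 8 group means. The values are a description with no p: the 8 points come from the same 24 arrays for every probe, and 4 of them are the EN groups in which most of the genes fell. In EN at 3 and at 5 weeks Gabrg1, Gabrb1, Gabra2 probe A_55_P2177351, Gabra4 probe A_51_P393124 and Gabrg3 probe A_55_P2228097 were above background on at most 1 array. Their r therefore rests in part on groups above background set against groups below it, in which the course is unknown. Gabrg1 and Gabrb1, at the 2 ends of the chromosome 5 cluster, had r = 0.97, and 0.321% of the other tested probes were at least as alike to Gabrg1. Gabrg1 and Gabra2 probe A_55_P2177351 had r = 0.97 (0.486%), and Gabra4 probe A_51_P393124 and Gabrb1, which open head to head, had r = 0.92 (0.959% of probes at least as alike to Gabra4). On chromosome 7 Gabrg3 probe A_55_P2228097 and Gabra5 probe A_55_P2806920 had r = 0.94 (0.684%). Pairs of different chromosomes reached similar values. Gabrg1 and Gabrg3 probe A_55_P2228097 had r = 0.94 (1.18%), Gabra4 probe A_51_P393124 and Gabrg3 probe A_55_P2228097 had r = 0.93 (0.607%), and Gabra5 probe A_55_P2806920 and Gabrb2 probe A_51_P227679 had r = 0.94 (1.43%).

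**Figure D4:**
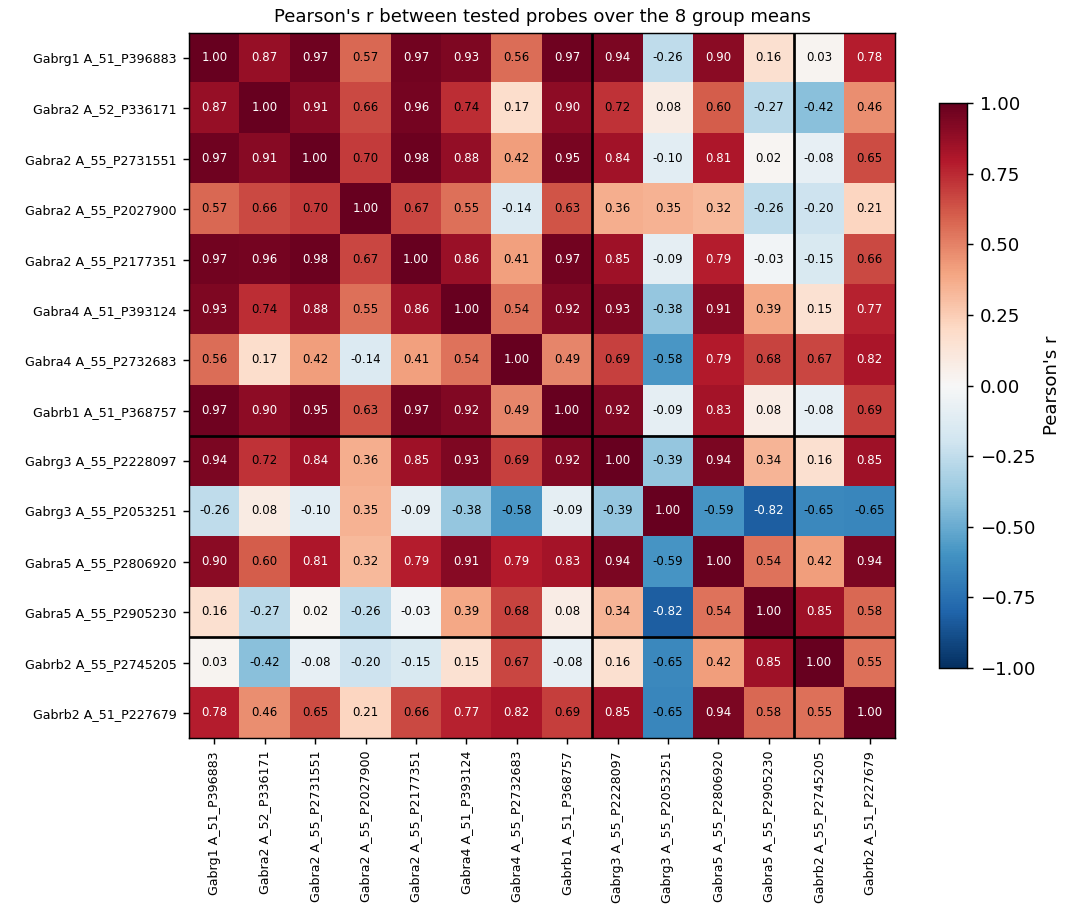
Pearson's r over the 8 group means between each 2 of the 14 tested probes, ordered along chromosomes 5, 7 and 11, with black lines between the clusters and the value of r in each cell. The dark blocks of high r cross the lines between clusters, and the rows of Gabrg3 A_55_P2053251, Gabra5 A_55_P2905230 and Gabrb2 A_55_P2745205 are pale or blue against most others.

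With the brightest tested probe of each gene, mean r was 0.51 ± 0.16 (jackknife SE over arrays) over the 6 pairs of chromosome 5, 0.34 ± 0.26 for the 1 pair of chromosome 7 and 0.54 ± 0.08 over the 14 pairs of genes in different clusters. Within and between clusters r was thus no further apart than its error. That rule took probes A_55_P2027900, A_55_P2732683 and A_55_P2905230 for Gabra2, Gabra4 and Gabra5. With the brightest probe of a RefSeq mRNA accession, a choice made after the data were seen, mean r was 0.94 within chromosome 5, -0.82 for the chromosome 7 pair and 0.19 between clusters. Over all pairs of tested probes of different genes it was 0.70 within chromosome 5 (21 pairs), -0.034 within chromosome 7 (4 pairs) and 0.35 between clusters (56 pairs). The answer therefore depended on the probes that stood for the genes. Over the 4 AN means alone mean r within chromosome 5 was -0.15, and over the 4 EN means alone it was 0.48. After subtraction of the group means from the 24 arrays, which leaves the spread between arrays of a group, it was 0.36 within chromosome 5 and 0.13 between clusters.

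Probes of 1 gene did not always move together. Over the 10 pairs of tested probes of the same gene mean r was 0.61 ± 0.08, with a range from -0.39 to 0.98. Gabra2 probes A_52_P336171, A_55_P2731551 and A_55_P2177351 had r of 0.91 to 0.98 with each other and of 0.66 to 0.70 with probe A_55_P2027900. Probe A_55_P2027900 overlaps probe A_55_P2177351 by 29 bases and was above background on all 24 arrays, and in AN it read 7.24, 7.54 and 7.59 at P0 and 6.51, 7.73 and 7.60 at 5 weeks. Its last 30 bases, shown because they are the part in which it differs from its neighbour, hold a run of 23 A and G, here in capitals, a length that 0.19% of tested probes reach.
Gabra2 probe A_55_P2027900, last 30 bases: aaaatttAGAAGAAGAAGGAGAAGAAGAAG
The 2 Gabra4 probes had r = 0.54, the 2 Gabra5 probes 0.54, the 2 Gabrb2 probes 0.55 and the 2 Gabrg3 probes -0.39. Gabra4 probe A_55_P2732683, named for an Ensembl transcript, read 9.48, 11.02 and 11.17 in EN at P0 and 7.30, 6.91 and 7.62 at 3 weeks, its one call, with a difference of -3.28 ± 1.02 (SE, adjusted p = 0.0115). Gabra5 probe A_55_P2905230 read 9.59, 8.99 and 9.07 in EN at P0 and 8.45, 8.06 and 8.72 at 5 weeks, and Gabrg3 probe A_55_P2053251 read 5.23, 4.93 and 5.09 at P0 and 5.17, 6.05 and 5.05 at 5 weeks, with no call in any comparison. Whether these probes see other transcripts of the genes or other RNA was not tested.

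The named genes most like each subunit gene, by Pearson's r over the 24 arrays with the brightest tested probe of the subunit gene, were not other subunit genes. For Gabrg1 they were Dner (r = 0.99), Astn1 (0.98) and Ralyl (0.98), for Gabrg3 probe A_55_P2228097 Pcdh8 (r = 0.97), Gpr162 (0.97) and Pnck (0.97), and for Gabrb2 probe A_51_P227679 Gal (r = 0.95), Adgrb3 (0.95) and Plvap (0.95). Gabrb1 was most like Slc25a18 (r = 0.95), Mlc1 (0.95) and Slc4a4 (0.94). The brightest probes of the other 3 genes were most like Lnx1 (r = 0.99), Ptchd2 (0.99) and Zfp280c (0.98) for Gabra4 probe A_55_P2732683, Zfr (r = 0.80), Ube2o (0.80) and Tmem74 (0.77) for Gabra2 probe A_55_P2027900 and Olfr1349 (r = 0.88), Krtap4-8 (0.88) and 4932430A15Rik (0.87) for Gabra5 probe A_55_P2905230. These are the highest of the values over all tested probes and are given as a description.

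Of 12 other GABAA receptor subunit genes 8 had a tested probe, 1 probe per gene here. Of these 8, 4 fell in EN at 1 week, 3 at 3 weeks and 3 at 5 weeks, and 3, 2 and 4 were higher in AN than in EN at the 3 ages, with none lower. Their median AN minus EN difference was 1.27, 1.22 and 1.91, where that of all tested probes was -0.06, -0.03 and -0.03. Genes for the assembly and anchoring of the receptor were counted in the same way. Of 11 such genes, all tested, 1, 0 and 1 were higher in AN at the 3 ages, with medians of 0.11, -0.14 and -0.08. In EN 0, 2 and 2 of them rose and 2, 2 and 1 fell at the 3 ages. The gene called between AN and EN at 1 week was Lhfpl4, whose product is needed to place receptors with a gamma 2 subunit at inhibitory synapses (2.77 ± 0.54, SE, adjusted p = 0.00707), and it fell in EN at 1 week by 1.97 (adjusted p = 0.0114). Plcl1, whose product binds GABAA receptor beta subunits, rose in both fibres at 5 weeks (2.54 in EN and 1.80 in AN, adjusted p = 7.92e-10 and 6.90e-08). For Gphn, which encodes the scaffold gephyrin, neither tested probe was called in any comparison.

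Neighbouring genes within 1 Mb of the outer probes of each cluster, subunit genes left out, were tested by 25 probes of 15 genes on chromosome 5, 14 probes of 6 genes on chromosome 7 and 9 probes of 6 genes on chromosome 11. At 1 week 0 of these 48 probes were called between AN and EN by limma, and 4 had an unadjusted p under 0.05. At 3 and 5 weeks the calls were all on chromosome 5, 1 higher in AN and 2 lower at 3 weeks and 2 lower at 5 weeks. Both Corin probes were lower in AN (-1.85 and -1.64 by probe A_51_P135268, adjusted p = 0.00885 and 0.0155), opposite to the subunit genes. In EN the chromosome 5 neighbours moved in both directions, with 1 of 25 probes up and 4 down at 1 week, 4 and 6 at 3 weeks and 5 and 3 at 5 weeks. Their median was -0.12, -0.16 and -0.11, beside -2.07, -2.27 and -2.47 for the 8 tested subunit probes of that cluster. Atp10d rose in EN at 5 weeks (1.71, adjusted p = 6.54e-07), and Zar1 fell in both fibres (-4.01 in EN and -3.32 in AN, adjusted p = 4.17e-07 and 4.36e-06).

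Markers of neurons moved with the subunit genes in EN. In AN at 5 weeks they fell where no chromosome 5 subunit probe was called in the fit over all arrays. Of 8 sensory neuron markers 7 fell in EN at 1 week and 7, 2 and 1 were higher in AN at 1, 3 and 5 weeks. Their mean log2 intensity ran from 12.14 to 12.65 on the EN arrays of P0, from 8.04 to 9.72 on those of 1 week, and from 13.00 to 13.22 on the AN arrays of 1 week. Of 9 general neuron markers 8 fell in EN at 1 week and 6, 2 and 3 were higher in AN. At 5 weeks the sensory markers of AN (8.13 to 11.49) overlapped those of EN (8.03 to 8.83) by replicate 3 of AN alone. Gabrg1, Gabra4 probe A_51_P393124, Gabrb1, Gabrg3 probe A_55_P2228097 and Gabra2 probes A_52_P336171, A_55_P2731551 and A_55_P2177351 did not overlap, and EN was above background on at most 1 array. The other tested subunit probes did overlap, among them Gabra5 probe A_55_P2806920 (5.74 to 8.74 in AN, 4.79 to 5.84 in EN) and Gabrb2 probe A_51_P227679 (5.94 to 7.64, 5.95 to 6.91). The share of all tested probes without overlap was not counted. At that age 3 of 5 spinal inhibitory neuron markers (among them Gad1, Gad2 and Pax2) were higher in AN, on arrays that read 7.19 to 8.77 against 5.62 to 6.21, and so were 3 of 6 astrocyte markers (10.28 to 11.03 against 9.12 to 9.61). At 1 week 0 of the 5 spinal and 3 of the 6 astrocyte markers were higher in AN. From P0 to 5 weeks in AN 5 of 8 sensory (median -3.30) and 5 of 9 general neuron markers (median -1.82) fell. In the same fit 0 of the 8 chromosome 5 subunit probes were called (median -0.08). Without replicate 2 of AN at 5 weeks some chromosome 5 subunit probes were called. Other lists moved as well. The spinal inhibitory markers fell in EN, with 3, 3 and 4 of 5 called at 1, 3 and 5 weeks. Of 5 oligodendrocyte markers 2 were higher in AN than in EN at 1 week and 2 at 5 weeks (medians 1.23 and 1.60). Of 4 skeletal muscle markers 3 fell at 1 week in EN and 3 in AN (medians -3.50 and -3.31). Every marker of the sensory, general neuron, spinal and astrocyte lists was above background on at least 1 array. Mnx1, which marks motor neurons, was above background on none, and 2 of the other 4 motor neuron markers fell in EN at 1 week. The part of any of these cells in the subunit results was not tested.

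**Figure D5:**
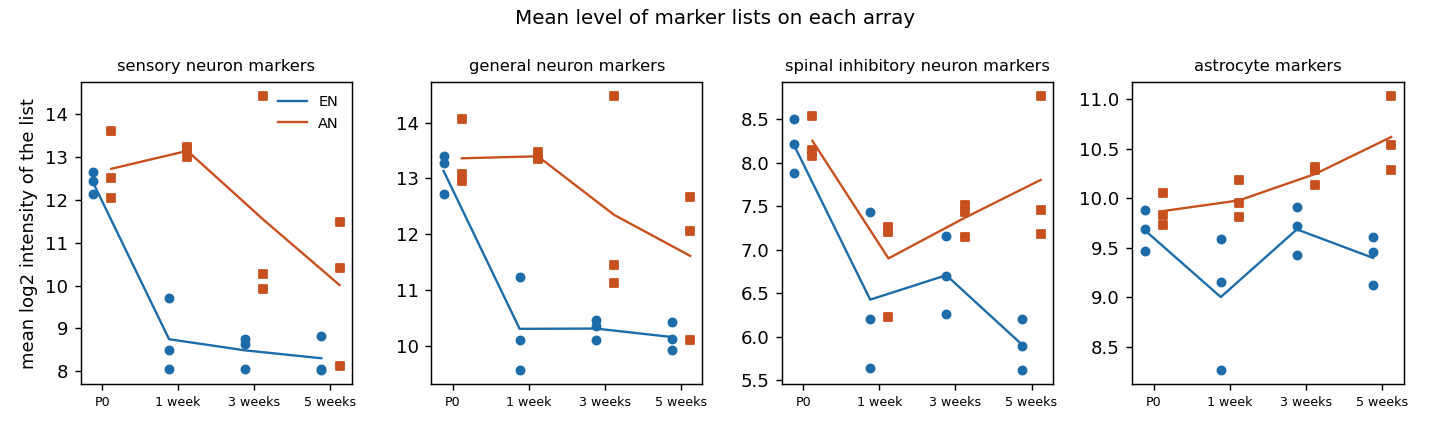
Mean log2 intensity on each array of 8 sensory neuron, 9 general neuron, 5 spinal inhibitory neuron and 6 astrocyte markers, 1 tested probe per gene, in EN (circles) and AN (squares) by age with lines through the group means. The neuron lists drop in EN after P0 as the subunit probes do, and replicate 3 of AN stands apart at 3 weeks (high) and at 5 weeks (low).

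The arrays of P0 shared a slide with some arrays of 1 and 5 weeks but with none of 3 weeks, so that a difference between 3 weeks and P0 had no value within a slide. Within the 2 slides that held both ages, the log2 difference 1 week minus P0 in EN was -4.58 and -2.45 for Gabrg1, -2.48 and -1.73 for Gabra4 probe A_51_P393124, -4.73 and -0.96 for Gabrb1 and -2.26 and -1.94 for Gabrg3 probe A_55_P2228097. Within the 1 slide with P0 and 5 weeks these differences were -4.18, -4.01, -2.86 and -4.74, measured values whose size below background is unknown, since at 5 weeks none of these probes was above background on any EN array. With slide as a fixed block 8, 7 and 9 of the 14 probes fell in EN at 1, 3 and 5 weeks, counts not set against the share of all tested probes that fell in that fit. Gabrb1, Gabra5 probe A_55_P2806920 and Gabra4 probe A_55_P2732683 lost their 3 week calls in that fit, and Gabra5 probe A_55_P2905230 gained one (-1.06, adjusted p = 0.00498).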

How the data were processed

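Total RNA of AN and EN was hybridised to Agilent 1-colour (Cy3) mouse arrays, 3 per group. The authors read the scans with Agilent Feature Extraction 10.7.1.1, and per the file headers the intensities are background-corrected signals with flags for spots well above background. The deposited value table holds log2 values that the authors quantile-normalized in GeneSpring, and all main values come from it. Beside a difference from a group in which a probe was above background on no array, a bound is given. Values within a replicate number or slide, and interactions printed with no bound, are measured differences whose size below background is unknown.

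The 36409 probes tested, of 56605 with a gene name, were well above background on every array of some group. Group means were fitted over all 24 arrays with limma 3.58.1 in R 4.3.3 (lmFit, eBayes), and 13 contrasts were adjusted by the Benjamini-Hochberg method. The study's thresholds of p under 0.05 and fold above 2 were used, with adjusted p. Correlations, counts and figures were made in Python 3.11.15 with pandas 2.3.3, numpy 2.4.6 and matplotlib 3.10.9. The steps were tested on simulated data. Promoter windows are from RefSeq (GRCm38.p6) and probe sequences from the deposited scanner files.

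Deviations from the group means correlated by 0.107 to 0.646 over the 12 AN and EN pairs of one replicate number and by -0.467 to 0.116 over 24 pairs of different numbers. The numbers were therefore taken to pair the arrays, which also shared a slide within each pair. The labels do not say what a number stands for.

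The genes were the members, their pathway lists and markers, and the 3 named genes most like each member. The members and lists were chosen with earlier results of these data known. Alternatives were other normalization and background correction, dim-probe filters, replicate and slide blocks, array weights, fits of the compared groups alone and leaving out each array. The precision rests on 3 arrays a group.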

Additional observations from a re-analysis of the deposited data

Results flagged for a closer look

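The difference between AN and EN at 5 weeks was set against the same difference at P0 by an interaction contrast in limma, and 2 probes passed. For Gabra4 probe A_51_P393124 the log2 difference of the differences was 3.37, and it passed without any one of the 24 arrays but was lost with normexp background correction and when only the arrays of the 4 groups were fitted. For Gabrg3 probe A_55_P2228097 it was 2.91, and the call was lost without any one of 16 arrays. Both probes were above background on no EN array at 5 weeks, so these values rest in part on signals below background, and with EN set at the background limit the log2 differences were at least 0.98 for Gabra4 and 1.29 for Gabrg3. At 1 and 3 weeks none of the 14 tested probes passed this test in the fit without a block, so a change of the AN and EN difference was not shown there by that fit.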

How the results depend on the processing

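None of the 50 single calls reversed under any setting tested or with any array left out. Of these calls, 30 held without any one array, and 15 also held under every setting in which their probe was tested. Keeping only probes above background on all arrays removed most member probes, so their calls were not tested there. Unadjusted p and adjusted p without a fold threshold only loosen the rule, so neither could lose a call. The settings with the most losses were normexp background correction (18) and the fit of only the arrays compared (17). With one array left out, the number of member probes called ran from 0 to 0, 2 to 7, 3 to 8 and 5 to 7 for AN minus EN at P0, 1, 3 and 5 weeks, from 4 to 9, 7 to 9 and 6 to 9 for EN against P0, from 0 to 2, 1 to 4 and 1 to 5 for AN against P0, and from 0 to 2, 0 to 2 and 1 to 4 for the interactions at 1, 3 and 5 weeks. The share of all tested probes called also changed with the array left out, and these counts are not set against it. Mean r with 1 array left out ran from 0.44 to 0.59 on chromosome 5, from 0.21 to 0.42 on chromosome 7, from 0.50 to 0.57 between clusters and from 0.56 to 0.64 between probes of a gene.

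Percentages in brackets are the share of all probes of the same fit that were called. Keeping only probes above background on all 24 arrays left 4 member probes. They gave 0, 0 and 0 calls for AN minus EN at 1, 3 and 5 weeks (1.83%, 2.07% and 2.18%). For EN against P0 they gave 1, 2 and 1 (8.41%, 24.2% and 24.3%). AN at 3 and 5 weeks had 1 and 1 (23.1% and 23.9%) and the 5 week interaction 0 (0.975%). Normexp gave 3 and 3 for AN minus EN at 3 and 5 weeks (1.59% and 1.60%), 4 for EN at 1 week (6.23%) and 0 for the 5 week interaction (0.673%). Fits of only the arrays compared gave 3 and 0 for AN minus EN at 3 and 5 weeks (1.85% and 0.0961%). They gave 2 and 1 for AN at 1 and 5 weeks (8.57% and 25.8%), and 2, 1 and 0 for the interactions (1.78%, 0.544% and 0.107%). Unadjusted p gave 1 and 10 for AN minus EN at P0 and 1 week (1.12% and 4.99%), 3 for AN at 1 week (10.3%), and 6, 5 and 7 for the interactions (3.80%, 4.08% and 4.60%). Array weights gave 10 for AN minus EN at 1 week (4.92%) and 2 for AN at 1 week (10.74%). The same weights gave 2 and 2 for the interactions at 1 and 3 weeks (2.06% and 1.51%). The replicate block, which follows the pairing, gave 10 for AN minus EN at 1 week (4.73%), 0 for AN at 1 week (8.22%), and 3, 3 and 4 for the interactions (2.11%, 2.89% and 3.84%). It moved no other count by more than 1.5 times. With slide as a fixed block AN had 1 and 1 calls at 3 and 5 weeks (22.7% and 26.7%). As a random block AN had 2 and 1 at 1 and 5 weeks (8.88% and 27.4%) and the 3 week interaction 1 (1.21%). The 75th percentile scaling and the fit with no filter each gave 1 for the 5 week interaction (0.810% and 0.401%). Adjusted p without a fold threshold gave 5 for AN at 3 weeks (51.7%).

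Mean r on chromosome 5 was -0.14 for the 1 pair of probes above background on all arrays, 0.35 by Spearman's rho, -0.15 over AN alone, 0.70 over all probe pairs and 0.94 by RefSeq accession, a choice made after seeing the data. On chromosome 7 it was -0.17 after subtraction of group means, 0.97 and 0.87 over EN and AN alone, -0.034 over all pairs and -0.82 by accession. Between clusters it was 0.41 for probes above background on all arrays, 0.41 over 24 arrays, 0.13 after subtraction, 0.71 and 0.35 over EN and AN alone, 0.35 over all pairs and 0.19 by accession. Between probes of a gene it was 0.41 without a filter, 0.52 over 24 arrays and 0.36 after subtraction. The causes were not tested. On the EN arrays after P0 the dimmest probe above background lay at 4.18 to 5.62 on the log2 scale, and the size of falls of probes below background is unknown.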
